A study of Mus musculus with 24 samples.

Results

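The libraries labelled primary hepatocytes (Pri-Hep, 3 libraries) were set beside the cholangiocyte organoids of the earliest passage (Cho-Orgs P0, 3 libraries), which makes 6 of the 24 libraries of a study of mouse liver cultures. Members were chosen by group alone: the 3 Pri-Hep columns of the hepatocyte table and the 3 P0 columns of the cholangiocyte table. Both groups came from wild-type adult BALB/c mice and the labels give neither a transgene nor a treatment of the animals. By the study's methods, Pri-Hep were liver cells pelleted through a Percoll gradient and depleted of EpCAM-positive cells with magnetic beads. Cho-Orgs P0 grew from EpCAM-positive cells of the remaining suspension in Matrigel, under a cholangiocyte medium with forskolin, Wnt3a and noggin, and had not been passaged. The study traces the replicate numbers of both groups to 3 mice and each replicate to its own cell culture. Pri-Hep were the reference of the hepatocyte organoids (Hep-Orgs) in the study, and the question here is how far cells taken as hepatocytes and young organoids of bile duct origin differed.

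Hepatocytes make the proteins of the blood plasma, run the urea cycle and gluconeogenesis, and clear drugs with cytochrome P450 enzymes under transcription factors such as HNF4A. Cholangiocytes line the bile ducts, carry keratins 7 and 19 and the adhesion protein EpCAM, and move chloride, bicarbonate and water into bile. Cells of either lineage can take on traits of the other in culture or after injury.

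The authors gave the values as FPKM (fragments mapped to a gene, divided by its length in kilobases and by library depth), in tables that were normalized apart. Of the symbols found in both tables, 19228 were matched, and 10937 of them had at least 1 FPKM in at least 3 of the 6 libraries and were tested. Within each library these genes were ranked, and each rank was given the mean log2(FPKM + 1) found at that rank over the 6 libraries. This rank-matched level makes the 6 distributions equal. A gene was called higher in a group when its 3 levels there all lay above the 3 of the other group and the means differed by at least 1 on the log2 scale. A tested gene under 1 FPKM in every library of a group had passed only through the other group. Its call could hardly go the other way, and counts of calls are to be read with this limit. Differences are given as Cho-Orgs P0 minus Pri-Hep, and printed ranks count from 1, the most abundant of the 19228 symbols. Since every library of a group lies in the same table, group and table cannot be told apart, and no test was run across them. With 3 libraries against 3, an exact two-sided p could not go below 0.1.

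The Pri-Hep libraries held between 15315090 and 18115248 fragments on genes, and the Cho-Orgs P0 libraries about 38990000 to 40180000 by an estimate from the steps between low values. A count of 3 fragments on a gene of 2 kb corresponds to 0.0826 to 0.0972 FPKM in Pri-Hep and to 0.0373 to 0.0385 FPKM in Cho-Orgs P0, which covers counting error only. Levels below these values were not read as expression.

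The label of the Pri-Hep libraries was checked against hepatocyte markers before any comparison, and many markers were listed at or near 0. Alb, which encodes the main plasma protein, had 106, 108 and 121 FPKM in the 3 Pri-Hep libraries and ranked 270 to 303. The most abundant transcript there was Mmp7, a matrix metalloproteinase of injured bile duct epithelium, with 9511, 9655 and 9972 FPKM, followed by the translation factor Eef1a1, by Spp1 (osteopontin), by Clu (clusterin) and by Lcn2 (lipocalin 2). The pericentral P450 gene Cyp2e1 was at 0.03, 0 and 0 FPKM. The bile acid uptake transporter Slc10a1 was at 0.0253 to 0.177 FPKM, the gluconeogenic gene Pck1 at 0 in all 3, the bile salt export pump Abcb11 at 0 in all 3 and the urea cycle gene Otc at 0, 0.013 and 0. By contrast, the bile duct keratin Krt19 had 240.0, 229 and 241 FPKM and Epcam, the gene of the protein used for depletion, 265, 275 and 266 FPKM. Xist, the RNA of the inactive X chromosome of females, had 179.8, 191 and 181 FPKM in Pri-Hep and 55.7, 62 and 60.9 in Cho-Orgs P0, although the study lists male mice among its materials, and the Y-linked genes Ddx3y, Kdm5d, Uty and Eif2s3y were at 0 in all Pri-Hep libraries. Those Y-linked genes were not listed in the cholangiocyte table, so they give no level for Cho-Orgs P0. More than 10% of the exon bases of Xist lie inside exons of another gene, so its levels are uncertain. The Cho-Orgs P0 libraries carried the markers of their label, with 997, 996 and 1141 FPKM of Krt19, and held Alb among their 6 most abundant transcripts as well. For Pri-Hep, the data go against the label, and the group is called the Pri-Hep libraries throughout, without a cell type being read from it.

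The Pri-Hep libraries ranked the genes as the Hep-Orgs did. Over the 10918 tested genes found in all 3 tables, the Spearman correlation between Pri-Hep libraries was 0.997 in the median of 3 pairs. Between a Pri-Hep library and a Hep-Orgs library, the median over 9 pairs was also 0.997 at P1, at P5 and at P10. Every difference between Pri-Hep and Cho-Orgs P0 below thus describes the hepatocyte table as a whole as much as its primary cells: Alb, for example, had a median of 109 FPKM in Hep-Orgs P1 and Mmp7 one of 10246.

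Between Pri-Hep and Cho-Orgs P0 the Spearman correlation was 0.735 in the median of 9 pairs, from 0.714 to 0.742. It was 0.754 with Cho-Orgs P5 and 0.764 with Cho-Orgs P10, and lower with each organoid of the Smart-Seq table: 0.709 with the round-like, 0.693 with the intermediate and 0.622 with the grape-like library. Cho-Orgs P0 correlated at 0.980 to 0.990 among themselves, at 0.934 with P5 and at 0.867 with P10. With the intermediate and round-like Hep-Orgs they correlated at 0.899 and 0.892, although those were grown from hepatocyte fractions. The points of such a correlation are genes of the same libraries and are no replicates. Libraries of the hepatocyte table stood apart from those of the other 2 tables whatever the labelled lineage.

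**Figure D1:**
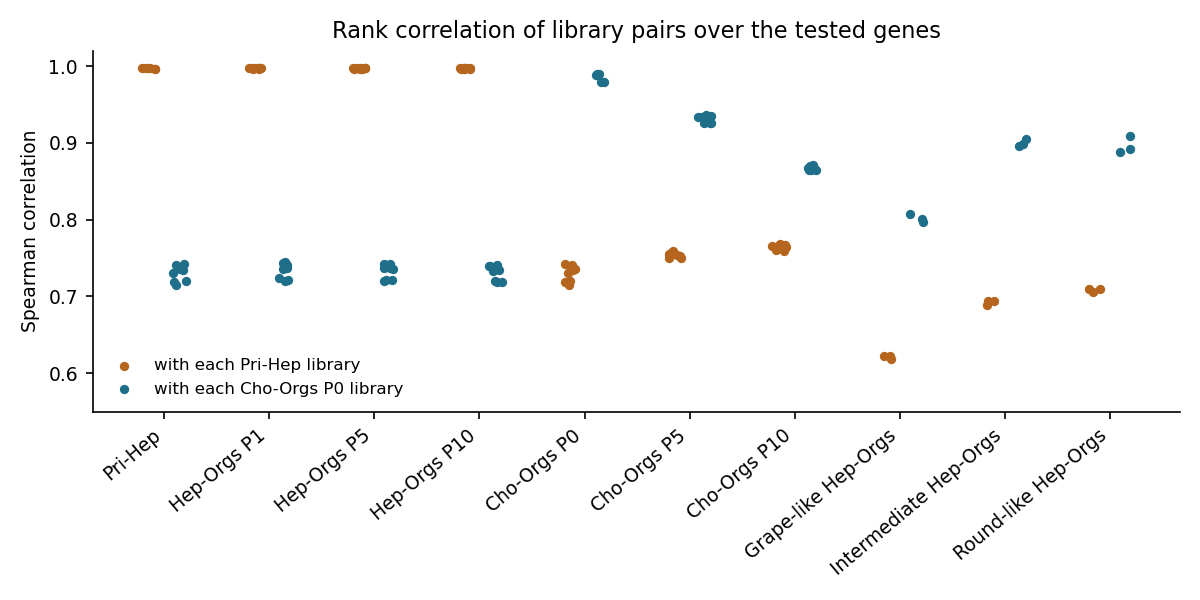
Spearman correlation of FPKM over 10918 genes between each Pri-Hep (orange) or Cho-Orgs P0 (blue) library and the libraries of each group on the horizontal axis, with 1 point per pair. Pairs within the hepatocyte table lie near 0.997, whereas Pri-Hep and Cho-Orgs P0 lie between 0.714 and 0.742.

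Of the 10937 tested genes, 1792 (16.4%) were called higher in Cho-Orgs P0 and 1893 (17.3%) higher in Pri-Hep, and 7252 were not called. These percentages are the background against which every count below is to be read. The median difference over all tested genes was -0.11. Among called genes, 48.6% were higher in Cho-Orgs P0, but this split depended on the scale: with log2(FPKM + 1) as deposited it was 70.7%, with a pseudocount of 0.1 it was 67.0%, and after median-ratio scaling it was 58.5%. On the deposited scale the median of all genes was 0.22. Large differences lay mainly in the direction of Cho-Orgs P0, with 221 genes at least 3 higher there and 64 at least 3 higher in Pri-Hep. At least 1 FPKM in all 3 libraries was reached by 9983 genes in Pri-Hep and by 10254 in Cho-Orgs P0, and 9341 genes did so in both. There were 430 genes with at least 1 FPKM in every Pri-Hep library and less in every Cho-Orgs P0 library, and 750 of the opposite kind.

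**Figure D2:**
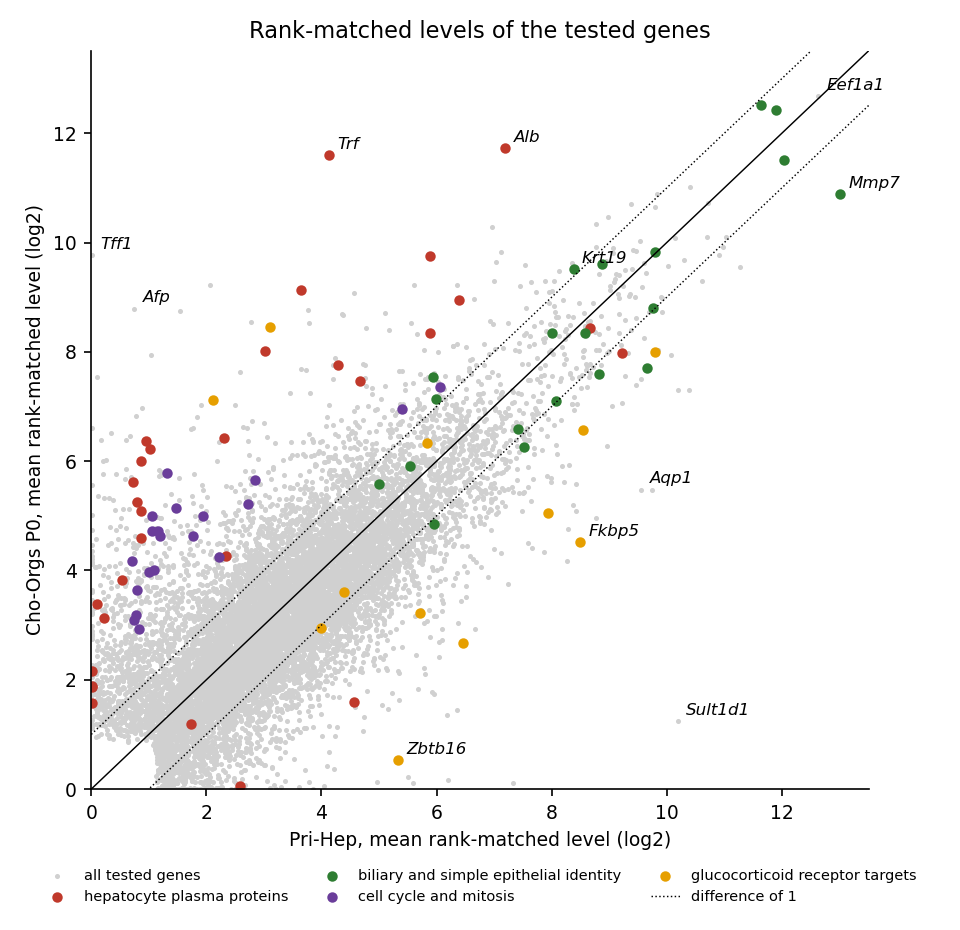
Mean rank-matched level (log2) of each tested gene in Pri-Hep (horizontal) and Cho-Orgs P0 (vertical), with 4 gene lists in colour. Plasma protein genes such as Alb (difference 4.54) and cell cycle genes lie mostly above the band of differences under 1. Glucocorticoid receptor targets such as Fkbp5 (-3.98) lie mostly below it. Biliary identity genes lie on both sides of the diagonal (median -0.10), with differences from -2.13 to 1.60.

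Plasma protein genes were, with few exceptions, more abundant in Cho-Orgs P0 than in the libraries labelled hepatocytes. Of 32 listed genes 30 were tested, 25 were called higher in Cho-Orgs P0 and 3 higher in Pri-Hep, against 16.4% and 17.3% of all tested genes, and the median difference was 3.29 beside -0.11 over all tested genes. Leaving out the 4 tested members listed at 0 in all Pri-Hep libraries gave 3.60. Of the 32 listed genes, 15 stayed under 1 FPKM in every Pri-Hep library. The tested ones among them passed through Cho-Orgs P0 alone and could hardly be called higher in Pri-Hep. Alb had 5202, 4526 and 5254 FPKM in Cho-Orgs P0, ranks 3 to 6, so that the groups did not overlap and the difference was 4.54 (SDs of 0.096 in Pri-Hep and 0.41 in Cho-Orgs P0, n = 3 each). Ahsg, which encodes fetuin A, had 10.7, 9.65 and 10.4 FPKM in Pri-Hep and 847, 830.3 and 768 in Cho-Orgs P0, a difference of 5.50 (SDs of 0.073 in Pri-Hep and 0.076 in Cho-Orgs P0, n = 3 each). The replicates of Cho-Orgs P0 were close for these genes and further apart for Apoa1, the main protein of high-density lipoprotein, which had 3.88, 2.99 and 4.1 FPKM in Pri-Hep against 197, 51.7 and 120.4, a difference of 4.12 (SDs of 0.19 in Pri-Hep and 0.89 in Cho-Orgs P0, n = 3 each).

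Other carriers and clotting factors followed the same order. Apoc1, an apolipoprotein, had 5.84, 6.59 and 6.96 FPKM in Pri-Hep and 337, 418 and 307 in Cho-Orgs P0. Hpx, the haem scavenger hemopexin, had 0.692, 0.588 and 0.594 against 105, 70.1 and 67.4 FPKM. F2, which encodes prothrombin, had 0.663, 0.647 and 0.509 against 40.1, 39.8 and 39.4 FPKM. All 3 genes were scarce in Pri-Hep and abundant in every Cho-Orgs P0 library, with differences of 5.0, 5.14 and 4.23. The antitrypsin paralogs Serpina1a to Serpina1e were also called higher in Cho-Orgs P0, but such near-identical copies can share reads, and their values are uncertain one by one. Cho-Orgs P0 library 2 was lowest of its group for each of them, for example 209, 44.4 and 115 FPKM of Serpina1b. Trf, which encodes transferrin, had 14.4, 14.3 and 14.5 FPKM against 3174, 5607 and 4247, but 63.5% of its exon bases lie inside exons of another gene, a property treated at the end.

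The fibrinogen genes, which encode the 3 chains of a single clotting protein, did not move as a unit. Fgb had 45.6, 48.8 and 46.4 FPKM in Pri-Hep and 1289.7, 1377 and 1052 in Cho-Orgs P0, and Fgg had 46.4, 46.4 and 47.2 and 456, 549 and 400.3. Both were called higher in Cho-Orgs P0, by 3.87 and 2.47. Fga had 281, 283 and 288 FPKM in Pri-Hep and 497, 558 and 428 in Cho-Orgs P0, a difference of -0.23 (SDs of 0.0055 in Pri-Hep and 0.21 in Cho-Orgs P0, n = 3 each), which was not called. In FPKM, Fga of Pri-Hep thus stood near Epcam while Fgb and Fgg lay well under it.

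The 3 members higher in Pri-Hep were Ttr, Azgp1 and Mup20, and on the deposited scale 2 were called. Ttr, a carrier of thyroxine and retinol-binding protein, had 420.2, 409 and 429 FPKM in Pri-Hep and 391, 336 and 312 in Cho-Orgs P0, a difference of -1.24 (SDs of 0.032 in Pri-Hep and 0.10 in Cho-Orgs P0, n = 3 each). Azgp1, a zinc-binding glycoprotein, had 17.6, 19.8 and 20.4 against 2.19, 2.08 and 2.49 FPKM. Mup20, a urinary protein of a multigene family whose members share sequence, had 2.86, 6.71 and 4.86 against 0, 0.247 and 0.0253 FPKM and is uncertain for that reason. Ttr stands out because its FPKM in Pri-Hep exceeded that of Alb, whereas in Cho-Orgs P0 Alb exceeded Ttr in every library.

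**Figure D3:**
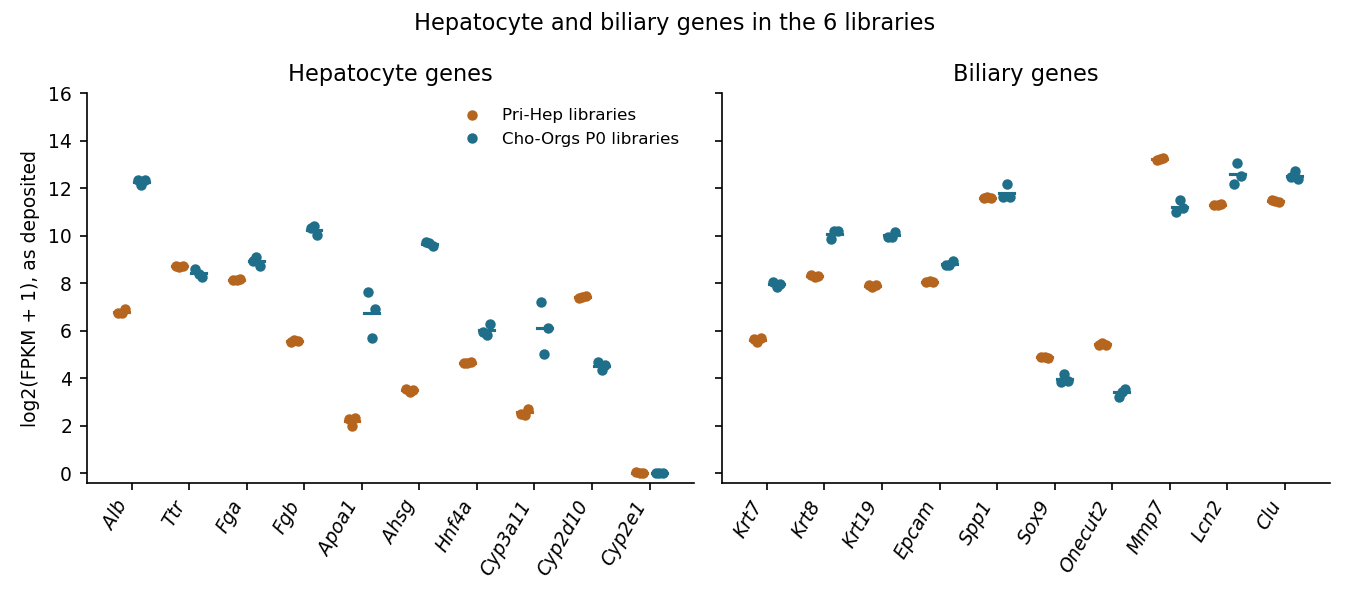
log2(FPKM + 1) as deposited for 10 hepatocyte and 10 biliary genes in the 3 Pri-Hep (orange) and 3 Cho-Orgs P0 (blue) libraries, with a bar at each mean. Alb, Fgb, Apoa1 and Ahsg lie far apart between the groups and Cyp2e1 is near 0 in both, whereas the means of Spp1 and of Sox9 lie within about 1 unit and Onecut2 is higher in Pri-Hep.

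The promoters of Alb, of its fetal relative Afp and of Sult1d1, the gene with the largest difference towards Pri-Hep, are shown as examples of genes that differed in either direction. They were taken from RefSeq (GRCm38.p6) as 250 bases before to 50 bases after the transcript start, 5′ to 3′ on the strand of the gene. Capitals mark TATAAA or its reverse complement TTTATA, the TATA box. CAAAGTCCA or its reverse complement TGGACTTTG, found in HNF4 sites, was searched too and was in none of these windows. Motifs of other liver factors, such as HNF1, are not reported here. Alb lies at chr5:90460620-90460919 on the plus strand, Afp at chr5:90490464-90490763 on the plus strand and Sult1d1 at chr5:87568957-87569256 on the minus strand.
Alb: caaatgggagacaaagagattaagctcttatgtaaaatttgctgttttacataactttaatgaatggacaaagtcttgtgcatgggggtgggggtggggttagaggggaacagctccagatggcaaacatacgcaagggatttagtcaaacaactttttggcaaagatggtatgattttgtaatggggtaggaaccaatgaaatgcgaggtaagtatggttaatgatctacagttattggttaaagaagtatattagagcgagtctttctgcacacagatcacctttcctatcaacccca
Afp: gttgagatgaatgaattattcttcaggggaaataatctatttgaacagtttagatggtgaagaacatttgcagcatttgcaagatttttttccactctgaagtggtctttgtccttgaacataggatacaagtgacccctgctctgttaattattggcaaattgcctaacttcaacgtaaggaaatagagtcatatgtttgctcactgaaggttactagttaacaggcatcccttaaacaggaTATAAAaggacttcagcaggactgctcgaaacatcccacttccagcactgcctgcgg
Sult1d1: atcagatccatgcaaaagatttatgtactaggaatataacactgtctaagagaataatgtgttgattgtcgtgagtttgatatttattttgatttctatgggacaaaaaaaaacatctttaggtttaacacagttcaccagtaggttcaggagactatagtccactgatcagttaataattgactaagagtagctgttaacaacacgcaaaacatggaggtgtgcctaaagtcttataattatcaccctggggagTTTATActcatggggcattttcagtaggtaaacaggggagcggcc

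TATAAA was in the window of Afp, with its first base at -7 from the start, and its reverse complement in that of Sult1d1 at 5, whereas the window of Alb held neither. Among the 24 plasma protein genes with a promoter in the table, 4 held TATAAA on either strand (16.7%), beside 6.80% of the 8884 tested genes with a promoter and 14.2% of all 27025 promoters. It was in 10.2% of the genes called higher in Cho-Orgs P0 and in 6.89% of those called higher in Pri-Hep. CAAAGTCCA was in 0.36% of the promoters of tested genes and in none of the 24. Among the gene lists it was found only in that of P450 genes, in 3 of 17 promoters (17.6%). A match describes letters in a window and does not show a bound site.

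Genes of hepatocyte metabolism differed less than plasma proteins and many were low in both groups. Of 30 listed genes 20 were tested, 9 were called higher in Cho-Orgs P0 and 1 higher in Pri-Hep, with a median difference of 0.96, and with log2(FPKM + 1) as deposited 14 and 1 were called. The other 10 did not exceed 1.46 FPKM in any of the 6 libraries. Fbp1, a gluconeogenic phosphatase, had 0, 0 and 0.0654 FPKM in Pri-Hep and 40.4, 16.4 and 28.3 in Cho-Orgs P0, and Tat, which degrades tyrosine, had 0.458, 0.389 and 0.509 and 23.5, 27.2 and 22. Both were thus listed at or near 0 in Pri-Hep and present in each Cho-Orgs P0 library, with differences of 4.49 and 3.70. Among urea cycle genes, Asl was called with a difference of 1.05, whereas Ass1 had 45.1, 39.4 and 40.4 FPKM in Pri-Hep and 46.8, 93 and 53.8 in Cho-Orgs P0 and was not called. Cps1, which starts the cycle, was low in both groups, at 0.817 to 1.4 and 2.7 to 3.54 FPKM.

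Glul, which encodes the glutamine synthetase of pericentral hepatocytes, was the single member higher in Pri-Hep. It had 226, 215 and 223 FPKM there and 37.4, 27.4 and 28.6 in Cho-Orgs P0, a difference of -3.53 (SDs of 0.025 in Pri-Hep and 0.19 in Cho-Orgs P0, n = 3 each).

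Cytochrome P450 genes divided evenly. Of 21 genes 11 were tested, 4 were called higher in Cho-Orgs P0 and 4 higher in Pri-Hep, and the median difference was 0.63. Cyp3a11, a main drug-metabolizing enzyme of the mouse liver, had 4.63, 4.54 and 5.63 FPKM in Pri-Hep and 148, 31.3 and 68.1 in Cho-Orgs P0, a difference of 3.15 (SDs of 0.15 in Pri-Hep and 0.99 in Cho-Orgs P0, n = 3 each). The order of the groups held in every library, but the Cho-Orgs P0 libraries were far apart, with the lowest value in library 2. Cyp2c29 (62.9, 5.69 and 15 FPKM in Cho-Orgs P0) showed the same spread and a difference of 3.08, and Cyp2d26 and Cyp3a25 were called with 2.98 and 2.42. Cyp2d10 went the other way, with 164, 169 and 176 FPKM in Pri-Hep and 24.8, 19.5 and 22.7 in Cho-Orgs P0, a difference of -3.53 (SDs of 0.04 in Pri-Hep and 0.13 in Cho-Orgs P0, n = 3 each). Cyp2d9, Cyp2f2 and Cyp3a13 were likewise higher in Pri-Hep, by differences of -1.74, -3.47 and -2.45. Members of the Cyp2d, Cyp2c and Cyp3a families are close copies that can share reads, so the values of single members are uncertain. Cyp1a2, which metabolizes caffeine, had 5.76, 6.51 and 6.66 FPKM in Pri-Hep and 26.6, 8.84 and 14.4 in Cho-Orgs P0, a difference of 0.84 that was not called. Of the genes of bile acid synthesis, Cyp7a1 and Cyp8b1 were listed at 0 in all 6 libraries.

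Most hepatocyte transcription factors were not called in either direction. Of 18 genes 17 were tested, 4 were called higher in Cho-Orgs P0 and 1 higher in Pri-Hep, against 16.4% and 17.3% of all tested genes. The median difference was 0.22. With log2(FPKM + 1) as deposited the median was 0.55, and 6 and 1 were called. Hnf4a, a nuclear receptor that drives hepatocyte genes, had 23.9, 24.3 and 24.4 FPKM in Pri-Hep and 60.7, 56 and 76.3 in Cho-Orgs P0. The groups did not overlap, but the difference of 0.83 (SDs of 0.02 in Pri-Hep and 0.23 in Cho-Orgs P0, n = 3 each) was under the threshold. Foxa3, a liver pioneer factor, was called with 1.26 (5.7, 6.08 and 6.09 against 20.8, 17.2 and 20.9 FPKM), and Nr1i2, Nr0b2 and Creb3l3 with 1.18, 1.39 and 1.79. Cebpa had 14.8, 12.3 and 12.9 against 16.3, 18.5 and 17.2 FPKM and Foxa2 17.8, 17.3 and 15.9 against 18.9, 21.7 and 17.8, and neither was called. Nr1h4, which encodes the bile acid receptor FXR, was higher in Pri-Hep, at 17.4, 18.7 and 18.2 FPKM against 2.01, 3.78 and 3.67, a difference of -2.54 (SDs of 0.056 in Pri-Hep and 0.37 in Cho-Orgs P0, n = 3 each). Its target Nr0b2, a repressor of bile acid synthesis, lay on the other side, at 2.12, 2.24 and 3.29 against 8.77, 10.4 and 10.3 FPKM.

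Of 14 genes of bile acid, organic anion and canalicular transport only 4 were tested, because the other 10 did not exceed 1.39 FPKM. Abcc2, the canalicular pump for conjugated bilirubin, had 0.304, 0.316 and 0.235 FPKM in Pri-Hep and 13.5, 9.94 and 11.4 in Cho-Orgs P0 and was called with 2.93. Slc38a3, a glutamine transporter, and Slc27a2, a fatty acid transporter, were called in the same direction, with 1.63 and 2.08. Slc2a2, the glucose transporter of hepatocytes, was higher in Pri-Hep, at 25.8, 26.8 and 26.1 FPKM against 4.23, 5.31 and 4.52, a difference of -2.61. The median of the 4 was 1.86, or 0.32 over all members above 0 in any library and 3.52 with log2(FPKM + 0.1).

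Biliary identity genes were abundant in both groups. All 20 listed genes were tested and had at least 1 FPKM somewhere in each group, with 3 called higher in Cho-Orgs P0 and 5 higher in Pri-Hep. The median difference was -0.10, but on the deposited log2(FPKM + 1) scale it was 0.84 and after median-ratio scaling 0.60, so that the list as a whole has no stable direction. On the deposited scale 8 genes were called higher in Cho-Orgs P0 and 2 higher in Pri-Hep. The summed FPKM of the list was 21852 to 22305 in Pri-Hep and 21816 to 29856 in Cho-Orgs P0, ranges that overlap. Krt7 had 49.7, 45.7 and 50.3 FPKM in Pri-Hep and 268, 228 and 248 in Cho-Orgs P0, a difference of 1.60 (SDs of 0.072 in Pri-Hep and 0.065 in Cho-Orgs P0, n = 3 each), and Krt19 had 997, 996 and 1141 FPKM in Cho-Orgs P0, a difference of 1.13 (SDs of 0.022 in Pri-Hep and 0.14 in Cho-Orgs P0, n = 3 each). Both bile duct keratins were therefore higher in Cho-Orgs P0 in every library, as was Cldn7, a tight junction claudin (1.15). The partner keratins Krt8 and Krt18 were not called, with 331, 309 and 321 and 658, 615 and 652 FPKM in Pri-Hep against 939.6, 1178 and 1172 and 1114, 1434 and 1170.2 in Cho-Orgs P0.

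Epcam had 265, 275 and 266 FPKM in Pri-Hep and 432, 432 and 488 in Cho-Orgs P0, a difference of -0.23 (SDs of 0.048 in Pri-Hep and 0.12 in Cho-Orgs P0, n = 3 each) that was not called. The FPKM of Cho-Orgs P0 were higher and the ranks about equal (100 to 110 in Pri-Hep and 116 to 143 in Cho-Orgs P0). Spp1, an abundant secreted protein of bile ducts, had 3089.6, 3203 and 3139 FPKM in Pri-Hep and 3225, 4649 and 3173 in Cho-Orgs P0 and was not called. Mmp7, the top transcript of Pri-Hep, had 2038, 2905 and 2305 FPKM in Cho-Orgs P0, ranks 7 to 11, and was called higher in Pri-Hep with -2.13 (SDs of 0 in Pri-Hep and 0.19 in Cho-Orgs P0, n = 3 each); the SD of 0 reflects its first rank in each Pri-Hep library. Tspan8, a surface protein of epithelia, Cdh1, which encodes E-cadherin, and the annexin Anxa5 were also higher in Pri-Hep, with differences of -1.95, -1.23 and -1.26. Lcn2, an iron-binding protein of injured epithelia, and Clu had 2512, 2502 and 2577 and 2881, 2834 and 2771 FPKM in Pri-Hep against 4687, 8722 and 5869.6 and 5785, 6804 and 5418 in Cho-Orgs P0. Neither was called, and both were among the 5 most abundant transcripts of every library.

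Biliary transcription factors were more often called higher in Pri-Hep. All 12 were tested, 1 was called higher in Cho-Orgs P0 and 7 higher in Pri-Hep, and the median difference was -1.19. With log2(FPKM + 1) as deposited, 2 and 3 were called and the median was -0.56. Sox9, a factor of bile duct development, had 29, 28.7 and 28.1 FPKM in Pri-Hep and 13.5, 17.3 and 13.7 in Cho-Orgs P0, a difference of -1.34 (SDs of 0.032 in Pri-Hep and 0.20 in Cho-Orgs P0, n = 3 each). Onecut2, a factor of early liver development, had 40.9, 43.5 and 41.7 against 8.32, 9.88 and 10.8 FPKM. Both factors were higher in every Pri-Hep library, with -2.45 for Onecut2. Klf6, Ehf, Tead1 and Glis3 had differences from -1.60 to -1.23 in the same direction. The exception, Sox4, had 5.75, 5.53 and 5.48 FPKM in Pri-Hep against 18.3, 23.5 and 19.8, but 54.6% of its exon bases lie inside exons of another gene. Yap1, the effector of the Hippo pathway, had 15.5, 15.1 and 15.3 against 29.2, 30.5 and 29.6 FPKM and was not called.

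Genes of bile duct ion and water transport differed widely in both directions, from -4.08 to 4.47. Of 17 genes 14 were tested, 2 were called higher in Cho-Orgs P0 and 6 higher in Pri-Hep, with a median of -0.59. With log2(FPKM + 1) as deposited, 4 and 3 were called and the median was -0.17. Cftr, the chloride channel that drives bile secretion, had 0.0918, 0.121 and 0.122 FPKM in Pri-Hep and 26.3, 21.5 and 57.5 in Cho-Orgs P0, a difference of 4.47 (SDs of 0.034 in Pri-Hep and 0.68 in Cho-Orgs P0, n = 3 each). The water channels went opposite ways. Aqp1, the constitutive channel of bile ducts, had 545, 509 and 542 FPKM in Pri-Hep and 76.4, 41.3 and 49.5 in Cho-Orgs P0, a difference of -4.08 (SDs of 0.028 in Pri-Hep and 0.38 in Cho-Orgs P0, n = 3 each). Aqp5, a channel of secretory glands, had 17, 16.5 and 17 FPKM in Pri-Hep and 590.0, 561 and 615 in Cho-Orgs P0, a difference of 4.33 (SDs of 0.026 in Pri-Hep and 0.071 in Cho-Orgs P0, n = 3 each). The glucose symporter Slc5a1, the efflux pump Abcb1b and the chloride importer Slc12a2 were higher in Pri-Hep, with -2.42, -2.11 and -1.28. The calcium-activated chloride channel Ano1 (-1.01) and the bicarbonate cotransporter Slc4a4 (-1.08) were just past the threshold. Sctr, the secretin receptor, was listed at 0 in Pri-Hep and did not exceed 0.71 FPKM in Cho-Orgs P0, so that neither group carried it at a level to compare.

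The cell cycle list gave the most uniform result. All 20 genes were tested and all 20 were called higher in Cho-Orgs P0, none higher in Pri-Hep, with a median difference of 2.88 and a range from 1.29 to 4.46. Of the 20, 7 stayed under 1 FPKM in every Pri-Hep library and were tested through Cho-Orgs P0 alone, so their direction was largely fixed by the filter. Exon overlap with another gene exceeded 10% in 3 of the 20, Ccna2, Ube2c and Ccnd1. Mki67, a marker of cycling cells, had 2.47, 2.78 and 2.51 FPKM in Pri-Hep and 44.9, 30.0 and 37 in Cho-Orgs P0, a difference of 3.05 (SDs of 0.075 in Pri-Hep and 0.22 in Cho-Orgs P0, n = 3 each). Ccna2, the cyclin of S phase, had 0.794, 0.998 and 0.981 against 46.9, 31.2 and 34.6 FPKM, and Cdk1, the mitotic kinase, 3.3, 3.67 and 3.17 against 24.8, 19 and 18.9. Each lowest Cho-Orgs P0 library thus lay several times above each highest Pri-Hep library. Ube2c, which marks mitotic cyclins for destruction, showed the largest difference of the list (4.46) and Ccnd1, the cyclin of the G1 phase, the smallest (1.29; 49.7, 54.2 and 54.3 against 179, 241 and 227 FPKM). Mki67 was as low in Hep-Orgs P1, with a median of 2.53 FPKM. In bulk libraries, fewer cells of a kind and less RNA per cell cannot be told apart.

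Fetal liver and oncofetal genes were higher in Cho-Orgs P0, with 7 of 8 tested members called and none called the other way (median 2.30). Of the 10 listed genes, 8 stayed under 1 FPKM in every Pri-Hep library. The tested ones among them passed through Cho-Orgs P0 alone, so the lack of calls towards Pri-Hep was largely fixed by the filter. Afp, the fetal relative of Alb, had 0.616, 0.343 and 0.463 FPKM in Pri-Hep and 674, 659.7 and 621 in Cho-Orgs P0. The difference was 8.05 (SDs of 0.12 in Pri-Hep and 0.031 in Cho-Orgs P0, n = 3 each). Gpc3, a fetal proteoglycan, had 0.0723, 0.164 and 0.0621 against 15.7, 32.8 and 28.9 FPKM and was called with 4.18. The imprinted genes H19, Dlk1, Cdkn1c and Peg3 were called with differences of 3.97, 1.37, 1.44 and 2.80, Cdkn1c with an exon overlap of 30.7%. Igf2 was called too, but 64.5% of its exon bases overlap another gene. In each of these genes except Dlk1 and Peg3 the Pri-Hep libraries stayed under 1 FPKM.

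Acute phase genes, which hepatocytes induce after interleukin 6, were also higher in Cho-Orgs P0. Of 15 genes 13 were tested, 9 were called higher there and 2 higher in Pri-Hep, with a median of 3.60, or 3.58 without the 3 members listed at 0 in Pri-Hep. On the deposited scale 9 and 0 were called. Of the 15 genes, 7 stayed under 1 FPKM in every Pri-Hep library, and the tested ones among them could hardly be called higher in Pri-Hep. Hp, which encodes haptoglobin, had 11.6, 10.7 and 11.8 FPKM in Pri-Hep and 568, 549 and 477 in Cho-Orgs P0, a difference of 4.74 (SDs of 0.065 in Pri-Hep and 0.11 in Cho-Orgs P0, n = 3 each). Orm1, an acid glycoprotein, had 0.167, 0.142 and 0.0718 against 141, 98.9 and 106 FPKM, and Hamp, the iron hormone hepcidin, was listed at 0 in all Pri-Hep libraries against 83, 230.5 and 96 FPKM. The 2 exceptions were C3, the central complement protein, with 1476, 1457 and 1495 against 1107, 1378 and 1179.6 FPKM, and Crp, with 53.9, 56.8 and 56.7 against 32.6, 45.4 and 32.2 FPKM. C3 was the ninth transcript by mean FPKM in Pri-Hep, so the acute phase genes were not all low there. Lbp, the carrier of bacterial lipopolysaccharide, had 139.9, 142 and 143 against 111, 146 and 112 FPKM and was not called. Cfb was called with 5.12, with an exon overlap of 79.5%.

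Targets of the glucocorticoid receptor were mostly higher in Pri-Hep. All 12 genes were tested, 8 were called higher in Pri-Hep and 2 higher in Cho-Orgs P0, with a median difference of -1.88. With log2(FPKM + 1) as deposited the median was -1.0, and 6 and 3 genes were called. Fkbp5, a chaperone of the receptor and a standard target, had 255, 251 and 262 FPKM in Pri-Hep and 23.8, 20.7 and 34.4 in Cho-Orgs P0, a difference of -3.98 (SDs of 0.017 in Pri-Hep and 0.34 in Cho-Orgs P0, n = 3 each). Its listed length of 6363 bases is not the 9468 bases of GENCODE M21, so the size of this difference is uncertain. Tsc22d3, the glucocorticoid-induced leucine zipper, had 69.3, 67.5 and 69.4 against 5.41, 6.81 and 5.39 FPKM, and Zbtb16, a zinc finger target, 31.9, 33.9 and 30.3 against 0.427, 0.898 and 0.629 FPKM. These 3 genes were at least several times higher in each Pri-Hep library than in any Cho-Orgs P0 library, with -3.79 for Tsc22d3 and -4.81 for Zbtb16. The kinase Sgk1 and the factor Klf9 had differences of -2.88 and -2.50, and Mt1, Errfi1 and Per1 of -1.80, -1.97 and -1.04. The receptor itself, Nr3c1, had 16.6, 17.8 and 17.2 FPKM in Pri-Hep and 10.8, 13.6 and 13.3 in Cho-Orgs P0 and was not called. Igfbp1, a liver secreted target, was higher in Cho-Orgs P0, at 3.57, 2.53 and 3.1 against 166, 182 and 194 FPKM. Mt2 was as well, but 73.5% of its exon bases overlap another gene while its neighbour Mt1 goes the opposite way, so Mt2 is uncertain. The medium of the Hep-Orgs held dexamethasone, and their Fkbp5 had a median of 255 FPKM at P1. Pri-Hep are labelled as primary cells, while the extraction text in the labels speaks of organoids for these samples too, and whether these cells met dexamethasone was not tested.

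Lists of other signals had no common direction. Of 9 tested Notch genes 2 were called higher in each group. Notch1 and Jag1, a receptor and a ligand, were higher in Pri-Hep (-1.74 and -1.36), whereas the target Hey1 was higher in Cho-Orgs P0, at 0.0596, 0.0675 and 0.136 against 3.68, 7.05 and 4.78 FPKM. Nrarp was called like Hey1, but with an exon overlap of 79.4%, and Hes1, the best known target, had 30.8, 30.3 and 27.5 against 33, 38.3 and 30.2 FPKM and was not called. The median of the Notch list was -0.33 and ranged from -0.73 to 0.19 over the alternatives, so that its sign was not stable. Of 8 tested Wnt genes, Lgr5 and Sp5 were called higher in Cho-Orgs P0 and none higher in Pri-Hep. Lgr5, a receptor for R-spondin and a marker of injury-activated ducts, had 1.41, 1.35 and 1.4 FPKM in Pri-Hep and 31.7, 19.6 and 21.3 in Cho-Orgs P0, a difference of 3.06 (SDs of 0.021 in Pri-Hep and 0.30 in Cho-Orgs P0, n = 3 each). Axin2, a feedback inhibitor, had 7.56, 7.96 and 7.71 against 5.73, 4.59 and 5.47 FPKM and was not called, and the list's median was 0.17, with a range from -0.010 to 0.58 that includes both signs.

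Of 12 tested genes that respond to YAP, TGF-beta or BMP signals, 2 were called higher in Cho-Orgs P0 and 1 higher in Pri-Hep, with a median of -0.05 that changed sign over the alternatives (-0.22 to 0.62). Id3, a BMP target, had 14.5, 12.5 and 13.7 FPKM in Pri-Hep against 71.3, 96.4 and 68.3 in Cho-Orgs P0. Ccn2, a matricellular protein also known as CTGF, was higher in Pri-Hep by rank (-1.12), although in FPKM library 2 of Cho-Orgs P0 (92.9, 153 and 84.7) exceeded the Pri-Hep libraries (138, 138 and 138). Of 16 immediate early genes 1 was called higher in Cho-Orgs P0 and 5 higher in Pri-Hep, with a median of -0.13 that changed sign as well (-0.28 to 0.39), and on the deposited scale 3 and 2 were called. Nr4a1, an orphan receptor induced by stress, had 0.647, 0.424 and 0.412 FPKM in Pri-Hep and 56.7, 17 and 22.3 in Cho-Orgs P0, and the antiproliferative gene Btg2 had 147, 147 and 149 and 45.8, 48.2 and 44. Fos, the classic gene of this class, had 100.2, 99.2 and 94.9 against 114, 46.9 and 54 FPKM, and its call for Pri-Hep (-1.24) holds by rank only, since the FPKM of the groups overlap.

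**Figure D4:**
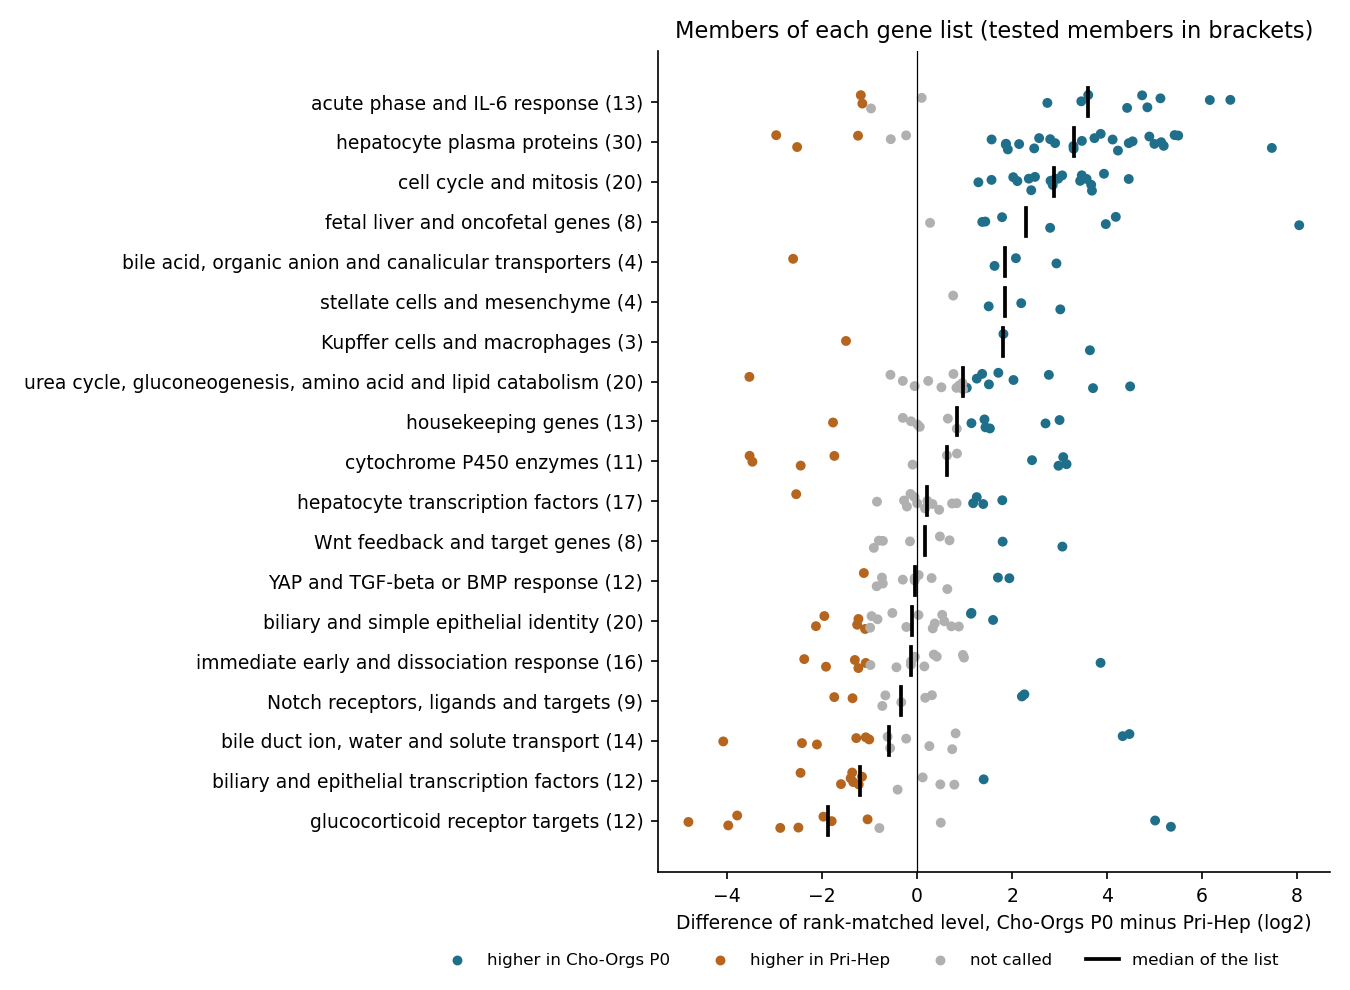
Difference of the rank-matched level, Cho-Orgs P0 minus Pri-Hep (log2), for every tested member of each list with at least 3 tested members, with the median of the list as a bar. The lists run from acute phase genes (median 3.60) at the top to glucocorticoid receptor targets (-1.88) at the bottom.

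Over all tested genes, the 10 called genes with the largest difference towards Cho-Orgs P0 and a mean of at least 10 FPKM included Tff1, Afp, Trf, Myl9, Sprr2a3, Rpl36al, Hamp, Muc5ac and Orm1. Tff1, a trefoil peptide of gastric mucus, was listed at 0 in all Pri-Hep libraries and had 1885, 761 and 1181 FPKM in Cho-Orgs P0, ranks 13 to 67, but 31.4% of its exon bases overlap another gene and its listed length of 478 bases is not the 703 bases of GENCODE M21, so it is uncertain. Muc5ac, the gel-forming mucin that accompanies it in the stomach, had 0.0422, 0.0512 and 0.0259 against 119, 90.8 and 106 FPKM. Both mucus genes were thus listed at or near 0 in each Pri-Hep library. Myl9, a light chain of contractile myosin, had 0, 0.0948 and 0 against 335, 224 and 205 FPKM, and Sprr2a3, a small proline-rich protein of stressed epithelia with near-identical paralogs, 2.68, 3.02 and 3.11 against 705, 1108 and 853. Rpl36al, a ribosomal gene with an exon overlap of 24.5%, had 1.05, 0.366 and 1.32 FPKM in Pri-Hep against 364, 322 and 333 in Cho-Orgs P0. Values so low for a gene of the ribosome are read here only as what the table lists.

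The 10 largest differences towards Pri-Hep were Sult1d1, Cyp4b1, S100a6, Fkbp2, Fam107a, Scnn1a, Pdk4, Zfp970, Zbtb16 and Malat1. Sult1d1, a sulfotransferase whose promoter is printed above, had 892, 923 and 883 FPKM in Pri-Hep, ranks 16 to 17, and 0.953, 2.43 and 1.55 in Cho-Orgs P0, a difference of -8.94 (SDs of 0.013 in Pri-Hep and 0.43 in Cho-Orgs P0, n = 3 each). Cyp4b1, a P450 enzyme best known from lung, had 125, 119 and 121 against 0.0785, 0.157 and 0.16 FPKM. Scnn1a, a subunit of the epithelial sodium channel, had 65.8, 65.5 and 61 against 1.07, 2.8 and 2.28 FPKM. These genes were picked for the size of their difference, so that size is no separate result. S100a6, a calcium-binding protein, had 56.8, 55.4 and 60.5 against 0.34, 0.17 and 0.0868 FPKM, and Pdk4, which blocks pyruvate use, 26, 25.1 and 24.6 against 0.174, 0.247 and 0.104. Fkbp2 had 40.2, 36.9 and 38.4 against 0.0608, 0.182 and 0.155 FPKM, but its listed length of 663 bases is not the 1640 bases of GENCODE M21, and it is uncertain. Fam107a and Zfp970 had differences of -5.28 and -4.82. Malat1, a nuclear RNA, had 644, 689 and 529 against 41.3, 53.8 and 66.4 FPKM.

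Among the most abundant transcripts the groups agreed in part. Of the 10 most abundant genes of each group 5 were shared, namely Mmp7, Eef1a1, Spp1, Clu and Lcn2. Those of Pri-Hep further included Fth1, Rps15, C3 and Tpt1, and those of Cho-Orgs P0 held Alb, Trf, Rplp1, Ftl1 and Bsg. Of the genes that averaged 100 FPKM or more in each group, Tpt1, Tmbim6, Ppp1ca, Gstm2 and Krt18 differed least. Tpt1, an abundant translation-linked protein, held ranks 10 to 11 in Pri-Hep and 10 to 11 in Cho-Orgs P0, and the glutathione transferase Gstm2 had ranks 124 to 148 and 123 to 141.

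Markers of other liver cells were low in both groups. Of 13 Kupffer cell genes 11 were listed at 0 in all Pri-Hep libraries and 3 in all Cho-Orgs P0 libraries, and the summed level was 7.84 to 8.94 FPKM in Pri-Hep and 43.9 to 49.9 in Cho-Orgs P0. Lyz2, the lysozyme of macrophages, was listed at 0 in Pri-Hep and had 9.63, 14.1 and 15.8 FPKM in Cho-Orgs P0, and Cd68, a lysosomal protein that epithelia also carry, had 6.45, 5.96 and 5.49 against 31.8, 33.2 and 26.1. The defining genes Clec4f, Timd4 and Vsig4 were at 0 in all 6 libraries, and the summed level of the list in Cho-Orgs P0 came mostly from Cd68 and Lyz2. Of the 3 tested members 2 were called higher in Cho-Orgs P0 and 1, Csf1r, higher in Pri-Hep (median 1.82). Lyz2 passed the filter through Cho-Orgs P0 alone and could hardly be called higher in Pri-Hep. Without Lyz2 the median was 0.16, and over the alternatives it ranged from 0.43 to 2.78.

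Of 11 sinusoidal endothelial genes 1 was at 0 throughout Pri-Hep and 1 throughout Cho-Orgs P0, and the list summed to 0.98 to 1.21 FPKM in Pri-Hep and 2.00 to 2.25 in Cho-Orgs P0, with 1 tested gene, Gpr182, that was not called (0.21). Stellate and mesenchymal genes summed to 21.2 to 21.9 FPKM and 98.2 to 120.3 FPKM, and Reln, a secreted matrix protein of stellate cells, had 5.42, 5.49 and 5.61 FPKM in Pri-Hep against 60.2, 72.8 and 74.5 in Cho-Orgs P0. Reln, Rgs5 and Vim were called higher in Cho-Orgs P0 and the median of the 4 tested genes was 1.85, or 0.036 over all members above 0 in any library and 3.61 with log2(FPKM + 0.1), whereas Col1a1, Col1a2, Col3a1, Dcn and Acta2 stayed under 0.5 FPKM in all 6 libraries. Of 11 erythroid and leukocyte genes 7 were at 0 throughout Pri-Hep and 4 throughout Cho-Orgs P0, with sums of 0.41 to 0.88 and 3.37 to 4.49 FPKM, with S100a9 as the single tested member, not called (0.99). The summed levels of these cell types were higher in each Cho-Orgs P0 library than in any Pri-Hep library, and their part in the differences above was not tested. Xist, the single matched gene of the list of sex-linked genes, was called higher in Pri-Hep with -2.36. Its exon overlap with another gene exceeded 10%, so this call is uncertain.

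Some differences moved with a property of the tables. The reads are described as strand-specific, and whether the counting used the strand is not given in the sources used here. Of the 6906 tested genes whose exons in GENCODE M21 overlap no exon of another gene, 15.3% were called higher in Cho-Orgs P0 and 18.7% higher in Pri-Hep. Of the 169 genes with more than 50% of their exon bases inside another gene's exons, 64.5% were called higher in Cho-Orgs P0 and 2.96% higher in Pri-Hep. Of the 1323 genes with an overlap of 10% to 50% the shares were 22.2% and 11.0%. Mrpl53, a protein of the mitochondrial ribosome with an overlap of 88%, was listed at 0 in all Pri-Hep libraries and had 36.5, 37.7 and 38.6 FPKM in Cho-Orgs P0. Nme3, Pagr1a and Pde2a, with overlaps above 60%, were listed at 0 in Pri-Hep as well. A 0 in Pri-Hep is therefore only what is listed and not proof of absence.

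The 9 genes at 0 in all Pri-Hep libraries and at 10 FPKM or more in all Cho-Orgs P0 libraries included 5 with an overlap above 10%, and the other 4 were Gkn2, Hamp, Krt13 and Wdr74. These 9 were chosen after their values had been seen. Gkn2, a gastric peptide that partners trefoil factors, had 51.4, 20.3 and 172 FPKM in Cho-Orgs P0, and Krt13, a squamous keratin, 19.3, 26.8 and 53.9. The opposite pattern was found for 1 gene, Rpp14, with 11, 12.1 and 12.6 FPKM in Pri-Hep.

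**Figure D5:**
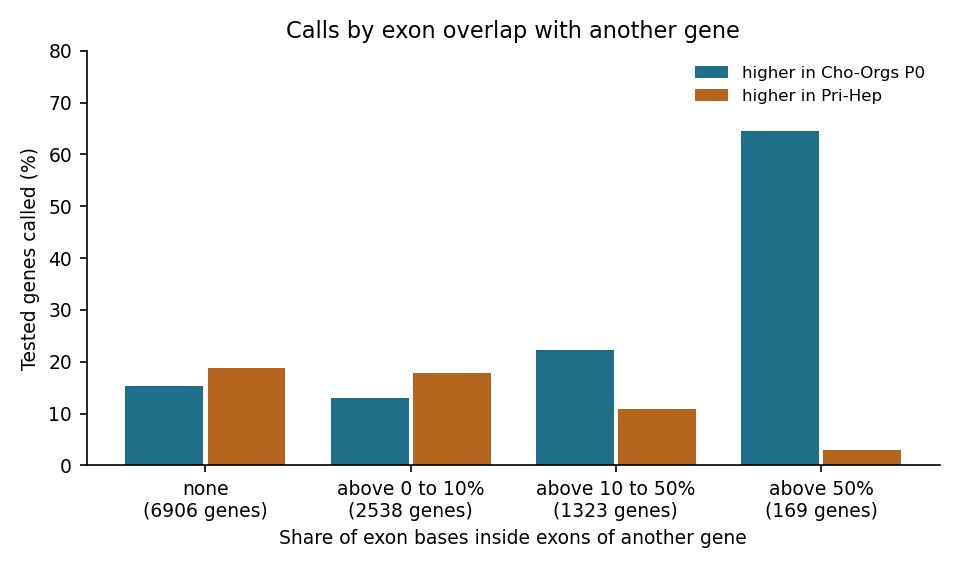
Share of tested genes called higher in each group, by the share of a gene's exon bases that lie inside exons of another gene in GENCODE M21. The share called higher in Cho-Orgs P0 (blue) was 15.3% without overlap and 64.5% above 50% overlap, whereas that called higher in Pri-Hep (orange) was 18.7% and 2.96%.

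Gene length moved with the calls too. When the tested genes were divided by length into 4 groups of equal size, the share called higher in Cho-Orgs P0 was 23.2% among the shortest and 11.2% among the longest. Besides Tff1, Fkbp2 and Fkbp5, the listed length also differed from that of GENCODE M21 for Epcam, Fth1, Ppp1ca, Csf1r and Wdr74, among others. The size of their differences is uncertain for that reason. Of 13 housekeeping genes 6 were called higher in Cho-Orgs P0 and 1 higher in Pri-Hep (median 0.84), and with log2(FPKM + 1) as deposited 8 and 0 (median 1.76). Gapdh had 5.03, 4.54 and 4.26 FPKM in Pri-Hep and 58.1, 64.3 and 52.7 in Cho-Orgs P0, and Ppia 106, 86.7 and 133 and 1378, 1189 and 1237, whereas Hprt went the other way, at 188, 194 and 201 and 99.9, 96.5 and 97.6. Gapdh and Ppia have many processed pseudogenes and are uncertain for that reason. Of 81 genes of cytosolic ribosomal proteins 19 were called higher in Cho-Orgs P0 and 7 higher in Pri-Hep (median 0.17). The part of overlap, length and shared reads in the differences of single genes was not tested.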

How the data were processed

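Poly(A) RNA of the 6 libraries was sequenced by the authors as strand-specific 150 bp paired-end reads. The authors deposited FPKM for each experiment in a table of its own, without pooling replicates. The submitters' processing notes name featureCounts 2.0.3, edgeR 3.40.2 and mm10, and the aligner, the annotation and whether the counting used the strand are not given in the sources used here. There are 31053 genes for the hepatocyte and 25876 for the cholangiocyte experiment. Rows with a repeated symbol (75) were left out, and 2 list genes were matched under an older symbol. FPKM times the gene length deposited by the authors gave whole fragments, within 0.01, for 99.9% of the Pri-Hep values.

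Ranks, rank-matched levels and calls were computed with Python 3.11.15, numpy 2.4.6, pandas 2.3.3 and scipy 1.17.1, and figures with matplotlib 3.10.9. The steps were tested on simulated data, with set changes, noise and a distortion of the cholangiocyte values that kept their order. Differences between the tables that vary by gene, such as exon overlap, length and shared reads, were not simulated. By the legends of the study, replicate numbers stand for the mice, and deviations of same-numbered libraries from their group means correlated at -0.0024 to 0.014. Exon overlap came from GENCODE M21 and promoters from RefSeq. The members and the 22 lists (341 genes) were chosen with earlier results of these data known. Named genes were those the study names, the 6 leading and 4 most abundant members of each list, the 10 largest calls in each direction, the 10 most abundant of each group and the 5 smallest differences. Further members are named with their call. Some genes under this rule are not reported here. Other scales, filters, reference distributions and omitted libraries were tried.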

Additional observations from a re-analysis of the deposited data

How the results depend on the processing

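All 117 called genes among the named genes kept their sign in each of their 1841 values under 16 alternatives. They had been called for a wide gap in the same 6 libraries, so a change of sign was unlikely beforehand. A kept sign does not mean that the call itself was kept. The count of genes higher in Cho-Orgs P0 was 3041 with log2(FPKM + 0.1) as deposited, 580 for a difference of at least 2 and 2737 for at least 10 percentile points of rank. The count higher in Pri-Hep was 1100 with log2(FPKM + 1) as deposited, 308 for a difference of at least 2 and 3180 for at least 10 percentile points. The Spearman correlation of Pri-Hep with Cho-Orgs P0 was 0.884 over all symbols above 0, 0.572 for a mean of at least 5 FPKM, 0.506 over the 500 most abundant genes and 0.751 for genes with at most 10% exon overlap. The median of plasma proteins was 5.07 with log2(FPKM + 0.1). That of cell cycle genes was 3.22 with log2(FPKM + 1) and 3.97 with log2(FPKM + 0.1), and that of glucocorticoid targets -1.0, -1.01 and, after median-ratio scaling, -1.25. The median of biliary identity genes was 0.84 on both deposited log scales, 0.60 after median-ratio scaling, 0.0021 for genes with at most 10% exon overlap and -0.066 when 753 further genes were matched by identifier. The overlap limit and the matching by identifier were chosen after the data had been seen. The cause of these shifts was not tested.

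Leaving out each library in turn gave 1758 to 1829 genes higher in Cho-Orgs P0, 1836 to 1920 higher in Pri-Hep, correlations of 0.725 to 0.736 and a median of biliary identity genes of -0.175 to -0.0052. When same-numbered libraries were paired, as a block chosen after the data had been seen, and all 3 pairs had to share a sign, 1793 genes were higher in Cho-Orgs P0 and 1893 higher in Pri-Hep. The limits are the separate tables, the markers that go against the Pri-Hep label, and exon overlap, gene length and reads shared between copies.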
